A study of Mus musculus with 12 samples.

Results

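Stromal progenitors that carry Pi16 and Dpp4 RNA were followed in single-cell RNA sequencing of the stromal vascular fraction (SVF) of mouse epididymal (eWAT) and inguinal (iWAT) white adipose tissue. They were 12069 of the 126095 cells that passed the limits on cells, 3416 in eWAT and 8653 in iWAT. A cell was counted as a progenitor if it held 700 to 22000 UMIs from 200 to 6000 genes, below 25% of them mitochondrial, with at least 1 UMI of Pdgfra, at least 2 UMIs of Pi16 and Dpp4 together, and none of Ptprc or Pecam1. UMIs are the barcodes by which copies of the same RNA molecule are collapsed. Pdgfra (chr5:75151322-75198206 of GRCm38.p6) encodes a growth factor receptor of adipose stromal cells, Pi16 (chr17:29318796-29328903) a secreted peptidase inhibitor and Dpp4 (chr2:62330073-62412315) a cell surface peptidase. Ptprc encodes the leukocyte antigen CD45, and Pecam1 the endothelial antigen CD31. The members were chosen on the measured levels of these 5 genes, which are therefore described, and no test result is given for any of them. At the threshold, 1432 members held exactly 2 UMIs of Pi16 and Dpp4, and 3387 otherwise matching cells just below it held 1. Another 11657 such cells held neither transcript and served as the comparison, named Pi16/Dpp4-negative cells below.

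Adipose progenitors form a hierarchy in mouse fat. Cells that express DPP4 and PI16 lie in the fibrous interstitium around vessels and the depot margin, can renew, and give rise to committed preadipocytes that express ICAM1 and PPARγ-dependent genes and become adipocytes. PI16-positive fibroblasts rich in matrix genes occur in many tissues, and in epididymal fat the mesothelium, the covering layer of the depot, also expresses DPP4. Rosiglitazone, a thiazolidinedione, activates PPARγ, the nuclear receptor that drives adipocyte formation and lipid storage.

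The 12 libraries came from male mice aged 12 weeks in 3 groups per depot, with 2 libraries each, which the labels call biological replicates and the study's text individual mice. WT-Veh mice were lean C57BL/6 animals given vehicle, ob/ob-Veh mice were Lepob/Lepob animals, which lack leptin and are obese, given the same methylcellulose vehicle, and ob/ob-Rosi mice were Lepob/Lepob animals given rosiglitazone at 30 mg/kg by gavage. Treatment lasted 3 days, and no lean group received rosiglitazone here. About 300 mg of tissue was digested with collagenase for 40 min, floating adipocytes were discarded and red cells were lysed. The ob mutation is carried in every cell throughout life, so a difference between ob/ob and WT libraries covers leptin deficiency and long-standing obesity together.

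The progenitors of a library held 493721 to 12667100 UMIs in all, and their median was 2282.5 to 7995 UMIs per cell. Pairs of libraries shared at most 99 cell barcodes (1.05% of the smaller library), and 33 member barcodes recurred over 23 of 66 pairs. RNA of other cells, free or from doublets, which were not told apart, was present in all libraries. Leukocytes with at least 3 UMIs of the C1q genes, which should lack Pi16 and Dpp4, held 2 or more UMIs of that pair in 0.635% to 6.05% of cells in eWAT and 2.47% to 26.3% in iWAT. As a check of the labels, Lep UMIs per 100 UMIs of Adipoq, both adipocyte transcripts, came to 30.5 and 79.3 for eWAT libraries with the label WT-Veh, 3.59 and 10.3 for ob/ob-Veh and 259 and 361 for ob/ob-Rosi. The Lep UMIs behind these eWAT values were 36 and 153, then 8 and 60, then 75 and 318. Those of Adipoq were 118 and 193, then 223 and 585, then 29 and 88, so both transcripts moved. In iWAT the Lep UMIs per 100 of Adipoq came to 20.5 and 31.4, then 33.3 and 14.0 (on 4 and 8 Lep UMIs), then 164 and 139. Leptin mRNA is known to be raised in untreated ob/ob fat and lowered by thiazolidinediones. The eWAT libraries went the other way for both contrasts, and the iWAT libraries did so for rosiglitazone, while iWAT ob/ob-Veh and WT-Veh overlapped. Since the ob mutation leaves the transcript in place, the genotype cannot be read from these counts. Group names below are the labels, and all directions rest on them.

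Pi16 in the progenitors stood at 1154 and 777 CPM (UMIs scaled to the same total over the summed progenitors of each library) in the eWAT WT-Veh libraries, at 1024 and 1037 under ob/ob-Veh and at 1057 and 818 under ob/ob-Rosi. In iWAT it was 2474 and 4047 CPM in lean mice, 3276 and 3435 CPM under vehicle in obese mice and 3664 and 4914 CPM under rosiglitazone. Every iWAT library lay above every eWAT library. Dpp4 reached 411 and 221 CPM in lean eWAT, 282 and 283 CPM under ob/ob-Veh and 273 and 110.3 CPM under ob/ob-Rosi. In iWAT the Dpp4 levels were 762 and 518 CPM, then 579.5 and 761 CPM, then 637 and 406 CPM, and the depots overlapped. In eWAT the members with 5 or more UMIs of the pair were 27.9% and 40.2% (lean), 63.6% and 58.9% (vehicle) and 34.6% and 36.5% (rosiglitazone), so that cells near the threshold were a smaller share in ob/ob-Veh libraries, and in iWAT they were 69.2% to 92.4%. Both transcripts were detected in 45.3% and 52.2% (lean), 66.8% and 58.1% (vehicle) and 42.7% and 35.4% (rosiglitazone) of the progenitors of an eWAT library and in 75.2% to 88.0% of those of an iWAT library. The remaining members passed on a single transcript.

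Cd55, a complement inhibitor of the cell surface, and Sema3c, a secreted semaphorin, mark this population and were not used to choose it. Cd55 stood at 152 to 665 CPM over the 6 eWAT libraries and 344 to 841 CPM over the 6 iWAT libraries of progenitors, against 25.5 to 100.4 and 27.1 to 107 CPM in Pi16/Dpp4-negative cells. Sema3c was at 361 and 213 CPM in lean eWAT, 493 and 443 CPM under ob/ob-Veh and 313 and 110.3 CPM under ob/ob-Rosi, and at 515 to 1067 CPM over the iWAT libraries. Thinning to 2000 UMIs left out all cells below that depth, 14355 of 17063 in iWAT WT-Veh replicate 1 and 7169 of 14718 in eWAT WT-Veh replicate 1. At this equal depth of 2000 UMIs per cell, 19.2% to 60.2% of eWAT and 41.7% to 65.1% of iWAT progenitors held a Cd55 UMI, against 5.40% to 16.3% and 5.17% to 20.7% of Pi16/Dpp4-negative cells. C1q-bearing leukocytes at that depth held one in 0.582% to 9.34% of cells in eWAT and 2.61% to 45.8% in iWAT, and the highest leukocyte shares, 17.8% and 45.8%, were those of the iWAT ob/ob-Veh libraries. The markers given for the population were thus enriched in it in both depots, and the eWAT ob/ob-Rosi replicate 2 had the lowest Cd55, Sema3c and Dpp4 levels of all libraries.

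Among Pdgfra-positive stromal cells of eWAT, progenitors made up 8.10% and 20.4% of the WT-Veh libraries, 44.9% and 32.2% of ob/ob-Veh and 16.4% and 17.3% of ob/ob-Rosi. Both ob/ob-Veh libraries lay above the other 4. In iWAT the shares were 21.6% and 69.9% for lean mice, 81.8% and 70.2% for obese mice on vehicle and 39.5% and 54.7% for obese mice on rosiglitazone. The ob/ob-Veh libraries again stood highest, but the second WT-Veh library nearly reached them and the WT-Veh pair spanned the ob/ob-Rosi pair. The ob/ob-Veh mean exceeded WT-Veh by 24.3 percentage points in eWAT and by 30.2 in iWAT, where leaving out WT-Veh replicate 1 reduced the difference to 6.10 points. No test of 2 against 2 libraries can give an exact permutation p under 0.333. A threshold of 2 UMIs is reached more easily in deep cells and where RNA of other cells is plentiful. The progenitors' median UMIs overlapped between WT-Veh (2282.5 and 6674) and ob/ob-Veh (7995 and 6633) in eWAT, with ob/ob-Rosi at 3265 and 5908, and in iWAT both ob/ob-Veh libraries (4039.5 and 2638) were the shallowest. After cells were thinned to 700 UMIs, the eWAT shares were 3.50% and 3.71% (lean), 9.54% and 7.23% (vehicle) and 4.96% and 2.55% (rosiglitazone). These shares rest on 49 and 18, then 165 and 87, then 45 and 12 progenitors. Both ob/ob-Veh values still lay above the rest. The 95% counting intervals of ob/ob-Veh replicate 2 (5.83% to 8.84%) and ob/ob-Rosi replicate 1 (3.64% to 6.58%) overlapped. In iWAT the order against lean mice was lost at that depth, with 9.74% and 47.3% (lean), 53.2% and 45.3% (vehicle) and 18.9% and 32.4% (rosiglitazone), and also with at least 3 Pi16 and Dpp4 UMIs, at 17.4% and 67.5% (lean) and 76.7% and 63.4% (vehicle). Of C1q-bearing leukocytes in eWAT, 0.635% and 2.97% (lean), 5.61% and 6.05% (vehicle) and 1.30% and 1.95% (rosiglitazone) held 2 or more Pi16 and Dpp4 UMIs. The iWAT values were 2.47% and 5.17% (lean), 26.3% and 16.9% (vehicle) and 5.13% and 10.4% (rosiglitazone). Their part in the progenitor shares was not tested.

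**Figure D1:**
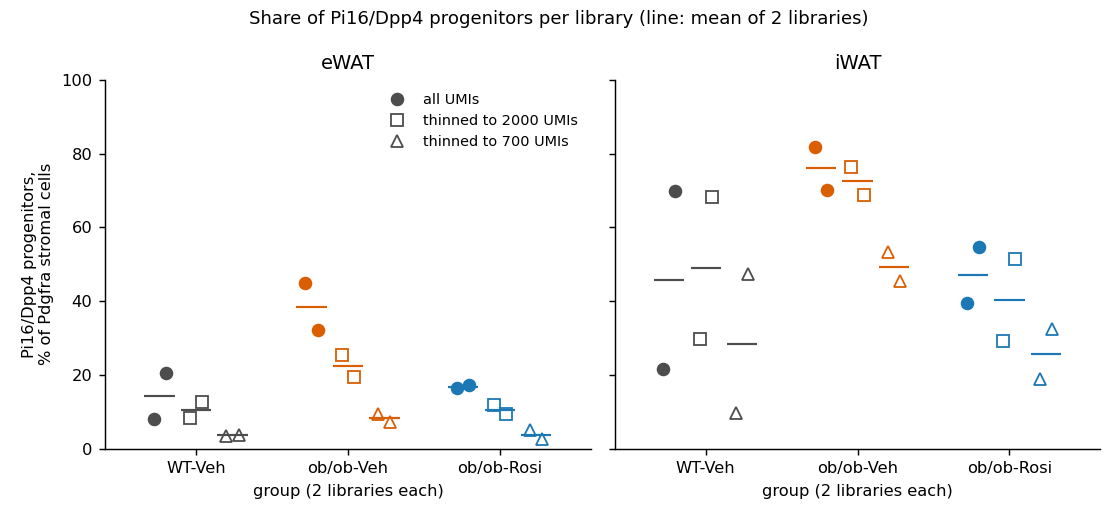
Share of progenitors among Pdgfra-positive stromal cells (percent) by depot and group, with 1 point per library at full depth (filled circles) and after thinning to 2000 (squares) and to 700 (triangles) UMIs per cell, and a line at the mean of the pair. Cells below 2000 UMIs are left out of the squares. In eWAT the ob/ob-Veh libraries are highest at each depth (44.9% and 32.2% at full depth, 9.54% and 7.23% at 700 UMIs), and in iWAT the WT-Veh libraries lie far apart (21.6% and 69.9%).

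Set against Pi16/Dpp4-negative stromal cells of the same libraries, the progenitors had higher levels of nearly all their listed markers and of part of the Wnt and BMP genes, and lower levels of most committed preadipocyte genes. Collagens and matrix enzymes were lower more often than higher. In eWAT 1289 genes were higher (10.3%) and 1230 lower (9.87%) of 12462 tested (20.2% in all), by edgeR's quasi-likelihood test with the library as a block and Benjamini-Hochberg adjustment. In iWAT 2195 were higher (17.5%) and 2400 lower (19.2%) of 12517 (36.7% in all). Called genes had an adjusted p no higher than 0.05 and differed 1.1-fold or more, and values in parentheses after levels are log2 differences with their standard error (SE). Since the gate itself chose the cells and what moves with Pi16 and Dpp4, these counts describe its cells and support nothing further. Of the progenitor markers listed beside the rule genes, 32 of 32 were higher in eWAT (median log2 difference 1.74, against -0.03 over all genes) and 31 of 32 in iWAT (median 2.45). Committed preadipocyte genes went the other way, with 20 of 22 lower in eWAT and 21 of 22 in iWAT (median -2.34). Of the PPARγ target genes 17 of 29 were lower and 2 higher in eWAT, and 24 of 33 lower and 1 higher in iWAT. Pi16/Dpp4-negative cells of the iWAT WT-Veh libraries also held summed endothelial RNA at 12900 and 24072 CPM, against 1469 and 1204 CPM in progenitors. Over all kept cells of these libraries it was 11581 and 14800 CPM. In the Pi16/Dpp4-negative cells of the other iWAT libraries it was 560 to 3404 CPM. The part of endothelial RNA in these differences was not tested.

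Efhd1, a calcium-binding mitochondrial protein, was at 29.3, 54.2 and 163 CPM (lowest, median and highest eWAT library) in progenitors and 1.44, 3.00 and 10.7 CPM in Pi16/Dpp4-negative cells, a log2 difference of 4.07 (SE 0.10, adjusted p = 1.52e-10). Dact2, a modulator of Wnt and TGF-β signalling, differed by 3.97 in eWAT and 6.29 in iWAT, and Bmp7, a bone morphogenetic protein, by 4.63 and 5.77. Both were thus higher in the gate's cells in either depot. Mrgprg, an orphan receptor of the Mas-related family, was in iWAT at 39.9, 280.4 and 1065 CPM against 0, 4.66 and 10.1 CPM and a log2 difference of 6.57 (SE 0.24, adjusted p = 5.82e-10). Akr1c18, which inactivates progesterone, and Krtdap and Dmkn, secreted proteins better known from skin, differed by 6.18, 6.05 and 6.03 there. Bmp3 and Bmp6 followed at 6.10 and 5.09.

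Named genes of the committed side included Plin4, Cxcl14 and Pparg in eWAT and Col15a1 and Adam12 in iWAT. Pparg, the target of rosiglitazone, was at 1.13 to 10.1 CPM in eWAT progenitors and 10.7 to 25.3 CPM in Pi16/Dpp4-negative cells (-2.16, SE 0.25, adjusted p = 6.04e-05). Cxcl14, a chemokine, differed by -2.57 and -3.26 in eWAT and iWAT, Col15a1, a basement membrane collagen, by -1.38 and -3.53, and Adam12, a metalloprotease of preadipocytes, by -1.83 and -3.47. Fabp4, a fatty acid carrier, differed by -1.65 and -2.77, and the perilipin Plin4 by -3.08 and -3.17. Mgll, a monoglyceride lipase listed with the PPARγ targets, was on the progenitor side (2.12 in eWAT).

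Of elastic fibre and small proteoglycan genes, 15 of 27 were higher and 1 lower in eWAT and 12 of 26 higher and 5 lower in iWAT. Their summed level was nonetheless lower than in Pi16/Dpp4-negative cells in both eWAT ob/ob-Veh libraries (26106 against 29631 CPM and 29351 against 31757 CPM) and in iWAT ob/ob-Rosi replicate 2 (24367 against 25323 CPM). Fbn1, the core of the microfibril, differed by 1.52 and the microfibril protein Mfap4 by 1.76 in eWAT. Among collagens and matrix enzymes more were lower, 16 of 34 against 6 in eWAT and 19 of 34 against 9 in iWAT, yet the fibril-associated collagens Col14a1 (1.84 in eWAT, 2.64 in iWAT) and Col12a1 (3.73 in iWAT) were higher. The summed level of the collagen and matrix enzyme list was lower in the progenitors in 12 of 12 libraries, for example 38619 CPM against 70732 CPM in iWAT ob/ob-Rosi replicate 1 and 46923 CPM against 47644 CPM in eWAT ob/ob-Rosi replicate 2. Of the Wnt, BMP and GDF ligands and modulators, 16 of 36 were higher and 7 lower in eWAT and 20 of 32 higher and 6 lower in iWAT. Ptgs2, the inducible cyclooxygenase, was higher by 2.03 and 5.47, Has1, a hyaluronan synthase, by 3.87 in iWAT, and Clu, the chaperone clusterin, by 2.87 in eWAT. Cytosolic ribosomal protein genes were higher for 73 of 81 in iWAT (median 0.54) and for 11 of 80 in eWAT (median 0.17), Rpl5 in iWAT by 0.90. Their summed level was lower in the progenitors in iWAT WT-Veh replicate 1 (123449 against 130679 CPM) and higher in the rest.

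**Figure D2:**
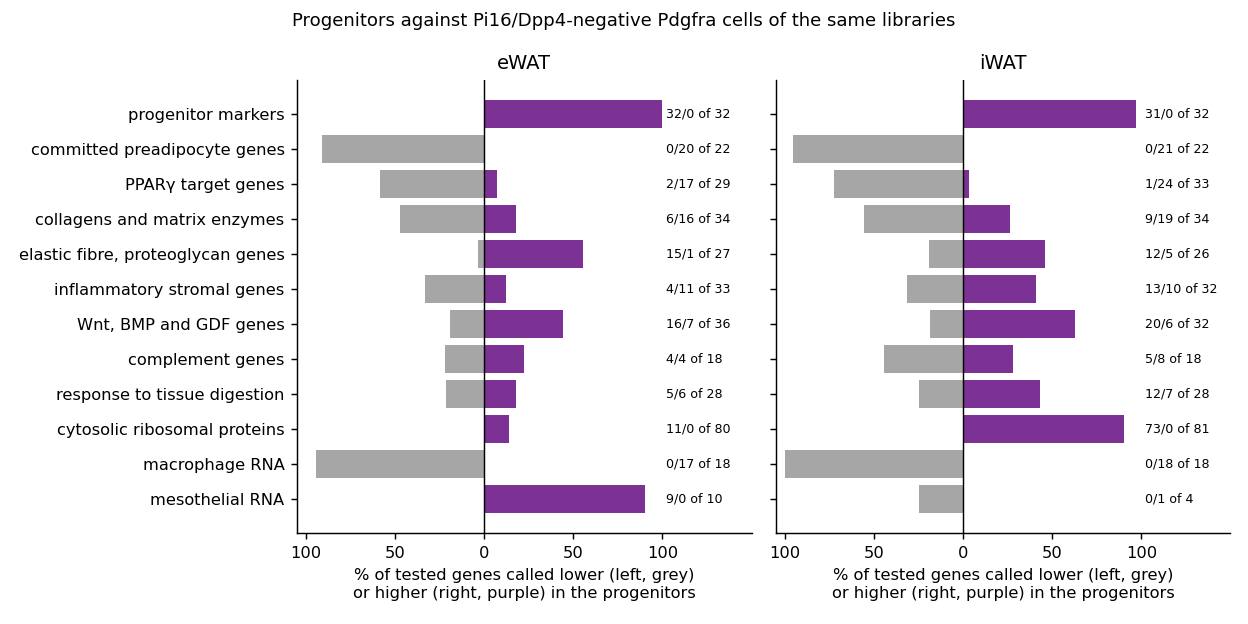
Percent of the tested genes of each list called higher (purple) or lower (grey) in the progenitors than in Pi16/Dpp4-negative Pdgfra cells of the same libraries, by depot. Progenitor markers are called higher in 32 of 32 (eWAT) and 31 of 32 (iWAT), committed preadipocyte genes lower in 20 and 21 of 22, and mesothelial RNA higher in 9 of 10 in eWAT and 0 of 4 in iWAT.

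In eWAT the progenitors also carried mesothelial RNA. Of 10 genes 9 were higher than in Pi16/Dpp4-negative cells (median 4.01), among them Upk3b at 16.3, 90.0 and 244 CPM, and Gpm6a and Slpi with log2 differences of 3.92 and 4.04. The cells with at least 2 mesothelial UMIs were 1.09% to 8.61% of the eWAT and at most 1.18% of the iWAT progenitors. Those with 3 or more macrophage UMIs were 43.2% and 83.3% of the eWAT progenitors in WT-Veh, 10.1% and 24.8% in ob/ob-Veh and 59.3% and 86.1% in ob/ob-Rosi libraries, and 19.9% to 56.9% of the iWAT progenitors. Leaving out both kinds of cell kept 41 cells of eWAT WT-Veh replicate 2 and 38 of ob/ob-Rosi replicate 2. The values given below without such cells therefore rest on few cells there. Members with fewer such UMIs stayed in, and the part of the macrophage RNA left in them was not tested. Macrophage RNA was lower than in Pi16/Dpp4-negative cells for 17 of 18 genes in eWAT and 18 of 18 in iWAT, and no gene was at 0 in the progenitors of a library except 1 of 18 in iWAT WT-Veh replicate 1. Its summed level in eWAT progenitors was 2366 and 4628 CPM in the WT-Veh libraries, 658 and 1246 CPM under ob/ob-Veh and 3370 and 4009 CPM under ob/ob-Rosi, so it was lowest in both ob/ob-Veh libraries. In iWAT it spanned 912 to 1649 CPM.

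Progenitors of obese mice were compared with those of lean mice first in eWAT. Lower in ob/ob-Veh than in WT-Veh libraries were 10 of 22 committed preadipocyte genes, 9 of 34 collagens and matrix enzymes, 7 of 27 TGF-β responsive genes and 5 of 27 PPARγ targets, and higher were 9 of 32 inflammatory genes. Counting the 1 gene that rose, 11 of the 22 committed genes were called, and most members of the other lists were not called. In all, 61 genes were higher (0.577%) and 144 lower (1.36%) of 10563 tested (1.94%). The calls depended on single lean libraries, with 6 higher and 31 lower without WT-Veh replicate 1 and 2 higher and 56 lower without WT-Veh replicate 2, and without ob/ob-Veh replicate 1 they were 42 and 55. Leaving out ob/ob-Rosi replicate 1 or 2, which enter the shared estimate of spread and the filter on low counts, raised them to 146 and 186 of 11124 or 147 and 175 of 11112 tested.

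Collagens and matrix enzymes fell for 9 of 34 and rose for none (median -0.74, against 0.01 over all genes). Summed genes of Fmo2 and Myoc stromal cells, another stromal class, moved with them, at 9684 and 14974 CPM in WT-Veh and 2585 and 4632 CPM in ob/ob-Veh libraries, and so did endothelial RNA, at 859 and 995 CPM and then 168 and 478 CPM. Of the 17 genes of that stromal list Mgp, Cilp and Bgn fell and Fgf10 rose, and Mgp, described below, gave a large part of the sum. Timp1 (chrX:20870166-20874737), an inhibitor of metalloproteases, was at 1069 and 522 CPM in the WT-Veh libraries and 26.2 and 28.6 CPM under ob/ob-Veh, a log2 change of -4.90 (SE 0.42, adjusted p = 0.000292). Mmp3, the metalloprotease stromelysin, was at 77.0 and 80.0 CPM in WT-Veh and 4.29 and 3.23 CPM in ob/ob-Veh libraries and changed by -4.36 (SE 0.33, adjusted p = 0.000176). Both were named under a rule that asks for groups that lie apart, so their lack of overlap restates the choice. Col8a1, a short-chain collagen, was at 237 and 138 CPM in WT-Veh and 12.3 and 28.1 CPM in ob/ob-Veh libraries (-3.29). Col4a2, of basement membranes, changed by -1.99.

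Elastic fibre and small proteoglycan genes fell for 7 of 27, while the median stayed at 0.01. Ltbp2, a microfibril protein related to the TGF-β binding proteins, went from 56.7 and 121 CPM to 1.38 and 6.13 CPM (-4.83, SE 0.60, adjusted p = 0.00285). Mfap2 and Mfap4, both microfibril proteins, changed by -2.52 and -2.29, and the proteoglycan Bgn by -1.62. Mfap4 lost the call in 9 and Bgn in 6 of 14 alternatives, both with at least 3 Pi16 and Dpp4 UMIs, with the equal-depth gate and with library size alone. Mgp (chr6:136872435-136875823), an inhibitor of calcification that binds BMPs, belongs to the Fmo2 and Myoc stromal list and was at 5389.7 and 7931 CPM in WT-Veh and 287 and 708 CPM in ob/ob-Veh libraries (-3.82, SE 0.37, adjusted p = 0.000888), and Cilp, a matrix protein first found in cartilage, changed by -1.99. Hyaluronan synthase Has1 was the elastic fibre and proteoglycan list's gene that rose, from 142 and 137 to 756 and 508 CPM (2.17).

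TGF-β responsive genes fell for 7 of 27 (median -0.86) and none rose. Cthrc1, a secreted protein of activated fibroblasts, was at 40.5 and 24.3 CPM in WT-Veh and 0.566 and 1.02 CPM in ob/ob-Veh libraries (-5.33, SE 0.45, adjusted p = 0.000292), and Ctgf, a matricellular growth factor, at 624 and 166 CPM in WT-Veh and 39.2 and 40.2 CPM in ob/ob-Veh libraries (-3.34). The list shares Ltbp2 with the elastic fibre genes.

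Committed preadipocyte genes fell for 10 of 22 and rose for 1 (median -1.34), and PPARγ targets fell for 5 of 27 (median -0.35). With at least 3 Pi16 and Dpp4 UMIs, which leaves out cells at the threshold, 5 of 20 committed genes were lower (median -1.02), and beyond this the part of cells near the threshold was not tested. Fabp5, a fatty acid carrier, was at 255 and 278 CPM in WT-Veh and 29.9 and 61.6 CPM in ob/ob-Veh libraries (-2.62, SE 0.32, adjusted p = 0.00285), and Plin2, a lipid droplet coat protein, at 446 and 297 CPM in WT-Veh and 65.7 and 71.5 CPM in ob/ob-Veh libraries (-2.47, SE 0.43, adjusted p = 0.0145). Apoe, a lipoprotein component, went from 4496 and 2141 to 267 and 439 CPM (-3.31), and the fatty acid transporter Cd36 and Fabp4 changed by -2.04 and -1.79. These 5 transcripts are also abundant in macrophages, and all were lower in progenitors than over all kept cells of the same library. The ratio to all kept cells was 0.107 to 0.227 for Apoe, 0.229 to 0.544 for Fabp5, 0.181 to 0.349 for Plin2, 0.0605 to 0.156 for Cd36 and 0.0683 to 0.273 for Fabp4, whereas Timp1 stood at 1.06 to 5.79. Macrophage RNA itself fell for 10 of 18 genes (median -2.03), among them Trem2 (-3.65) and Cd68 (-3.25). Of the 144 genes called lower, 63 (43.8%) stood below all kept cells in each of the 6 libraries, against 21.9% of the genes tested. With members of 3 or more macrophage UMIs or 2 or more mesothelial UMIs left out, 35 genes were higher and 61 lower of 5446 tested, 5 of 18 tested committed genes were still lower, and Timp1, Mmp3, Mgp, Fabp5 and Plin2 were among the genes still called while Ltbp2, Mfap4, Fabp4, Has1, Bmp2 and Hbb-bs were not. The sole committed gene that rose was Sult1e1, which inactivates oestrogens, from 38.5 and 40.0 CPM to 721 and 614 CPM (4.06, SE 0.34, adjusted p = 0.000292).

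Inflammatory stromal genes rose for 9 of 32 and fell for 2 (median 0.86). Ptgs2 went from 70.9 and 41.1 CPM to 805 and 564 CPM (3.66, SE 0.76, adjusted p = 0.034), and Il6 from 10.1 and 15.1 CPM to 218 and 121 CPM (3.65, SE 0.50, adjusted p = 0.00517). Tnfaip6, which remodels hyaluronan, stood at 83.0 and 70.7 CPM in WT-Veh and 806 and 415 CPM in ob/ob-Veh libraries (3.00). The Ptgs2 call was lost in 4 of 14 alternatives (DESeq2, at least 3 Pi16 and Dpp4 UMIs, and without either WT-Veh library, adjusted p up to 0.308), and Il6 and Tnfaip6 lost theirs without either WT-Veh library. In each eWAT library Ptgs2 and Tnfaip6 were higher in progenitors than over all kept cells (1.34 to 3.98 and 2.10 to 6.10 as ratios). Socs3 and Socs1, inhibitors of cytokine and leptin signalling, changed by 1.81 and 2.17. Genes of the response to tissue digestion had a median of 0.79 with 3 of 28 higher, namely Myc (2.44), Zfp36 (2.15) and Socs3. Their summed level in eWAT progenitors was 10723 and 12653 CPM (lean), 25565 and 20245 CPM (vehicle) and 13678 and 9766 CPM (rosiglitazone). In Pi16/Dpp4-negative cells it was 12191 and 15186 CPM, then 24162 and 20457 CPM, then 13110 and 10177 CPM. It was thus highest in both ob/ob-Veh libraries in either cell set. Zfp36 stood at 0.557 to 0.940 of its level in all kept cells, Myc at 1.61 to 2.43 and Socs3 at 1.37 to 1.82. With members carrying macrophage or mesothelial RNA left out, inflammatory genes were higher for 7 of 24 and lower for 1. Ptgs2, Il6 and Socs3 can also be induced by digestion, and the part of handling in these values was not tested. Summed mesothelial RNA of the progenitors was 452 and 222 CPM (lean), 538 and 1121 CPM (vehicle) and 428 and 222 CPM (rosiglitazone), highest in both ob/ob-Veh libraries. Erythrocyte RNA rose for 3 of 3 genes, Hbb-bs from 10.1 and 6.95 to 52.5 and 155 CPM.

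Of the Wnt, BMP and GDF genes 2 rose and 3 fell of 32 tested. Wnt2, a canonical Wnt ligand and progenitor marker, fell from 74.9 and 18.0 CPM to 2.91 and 2.38 CPM (-3.90, SE 0.60, adjusted p = 0.00882), and Gdf15, a stress-induced cytokine, changed by -2.45. Over the eWAT libraries Gdf15 stood at 0.0706 to 0.234 of its level in all kept cells, whereas Wnt2 stood at 1.75 to 20.2. Wnt5a, a ligand of non-canonical signalling that inhibits adipogenesis, rose from 24.3 and 37.7 CPM to 107 and 139.8 CPM (1.87), and Bmp2, which promotes commitment, from 0 and 4.63 CPM to 40.0 and 32.9 CPM (3.38). Of the other progenitor markers Arl4d was higher (1.45), and the remaining 29 of 31 were not called. Of the complement genes C4b alone passed, falling from 207 and 163 to 39.0 and 47.7 CPM (-2.13), and C3 was at 2301 and 2926 CPM in WT-Veh and 4561 and 4734 CPM in ob/ob-Veh libraries (0.79, adjusted p = 0.262). Glucocorticoid targets rose for 1 of 22, and none of 16 IGF genes, 25 cell cycle genes and 80 ribosomal protein genes was called.

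Rosiglitazone was then compared with vehicle in obese eWAT. Higher in ob/ob-Rosi than in ob/ob-Veh progenitors were 12 of 22 committed preadipocyte genes, 15 of 34 collagens and matrix enzymes, 9 of 27 TGF-β responsive genes and 5 of 27 PPARγ targets, and lower were 10 of 32 inflammatory genes and 5 of 31 progenitor markers. Most members of each list other than the committed genes were not called. In all, 303 genes were higher (2.87%) and 152 lower (1.44%) of 10563 tested (4.31%). Without ob/ob-Rosi replicate 2 the counts were 51 and 8, without ob/ob-Veh replicate 1 they were 103 and 63, and without ob/ob-Rosi replicate 1 they were 648 and 530. The ob/ob-Veh libraries enter this contrast and the one against WT-Veh, so that the values below and above are not independent.

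Collagens and matrix enzymes rose for 15 of 34 and fell for 1 (median 0.95, against -0.03 over all genes). The Fmo2 and Myoc stromal genes came to 15857 and 18790 CPM under ob/ob-Rosi, with 4 of 17 higher (Mgp, Cygb, Cilp and Bgn) and 2 lower (Fgf10 and Gpc3), and endothelial RNA to 621 and 1023 CPM. The part of other cell classes in these values was not tested. Timp1 was at 26.2 and 28.6 CPM under ob/ob-Veh and 512 and 778 CPM under ob/ob-Rosi (4.61, SE 0.41, adjusted p = 0.000337). Mmp3 rose from 4.29 and 3.23 to 192 and 169 CPM (5.57, SE 0.33, adjusted p = 1.55e-05), Col8a1 changed by 3.39, and Col15a1 went from 111 and 166 to 472 and 926 CPM (2.41). Elastic fibre and small proteoglycan genes rose for 9 of 27 and fell for 2, with Ltbp2 at 3.74, Mfap4 at 2.66 and Mfap2 at 2.63. Mgp reached 10350.5 and 11030.0 CPM from 287 and 708 CPM (4.52, SE 0.38, adjusted p = 0.000264), and Cilp changed by 2.15. TGF-β responsive genes rose for 9 of 27 and none fell (median 0.69), and Cthrc1 was at 31.4 and 31.5 CPM (5.40).

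**Figure D3:**
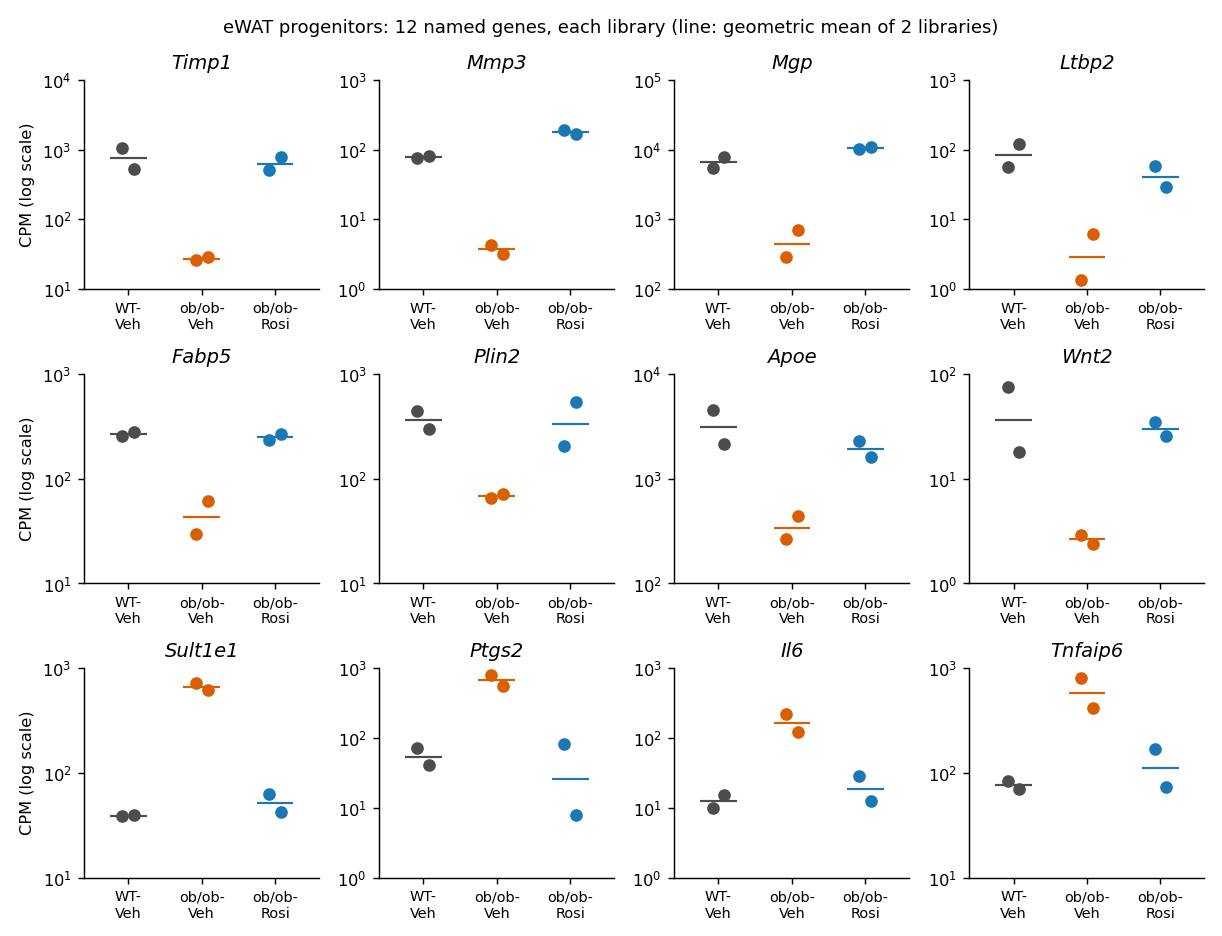
Level in eWAT progenitors (CPM, log axis) of 12 genes by group, with 1 point per library and a line at the geometric mean of the pair. Timp1, Mmp3, Mgp, Ltbp2, Fabp5, Plin2, Apoe and Wnt2 are lowest in both ob/ob-Veh libraries, and Sult1e1, Ptgs2, Il6 and Tnfaip6 are highest there.

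Committed preadipocyte genes rose for 12 of 22 and fell for 1, which was Sult1e1 (median 1.65). With at least 3 Pi16 and Dpp4 UMIs 10 of 20 were higher (median 1.65). Of cells thinned to 2000 UMIs, 17.1% and 24.2% of ob/ob-Veh and 44.9% and 67.4% of ob/ob-Rosi progenitors held a Col15a1 UMI, against 59.2% and 66.8% and then 71.0% and 76.8% of Pi16/Dpp4-negative cells. Cxcl14 was at 1.29 and 7.15 CPM under ob/ob-Veh and 28.9 and 218 CPM under ob/ob-Rosi (5.12, SE 0.92, adjusted p = 0.0112), and the heparan sulfate proteoglycan Sdc1 went from 2.75 and 7.32 to 28.9 and 89.5 CPM (3.74). Of the PPARγ targets 5 of 27 rose and none fell (median 0.34). These were Fabp5 (234 and 267 CPM, 2.54, SE 0.32, adjusted p = 0.00196), Plin2 (204 and 544 CPM, 2.50, SE 0.42, adjusted p = 0.00835), Cd36 (1.69), Fabp4 (1.61) and Lpl, a lipase named because it completes the count. Other targets of the receptor were thus not called. The first 4 belong to the transcripts that stood below all kept cells in each library, and macrophage RNA rose for 12 of 18 genes (median 2.17), among them Trem2 (3.40). Of the 303 genes called higher, 127 (41.9%) stood below all kept cells in each eWAT library, against 21.9% of those tested. With the members of 3 or more macrophage or 2 or more mesothelial UMIs left out, 96 genes were higher and 40 lower, 126 of these 136 were among those called before, and 7 of 18 tested committed genes and 2 of 18 tested PPARγ targets were higher. Of 43 named genes of this contrast 13 were tested and no longer called, namely Cxcl14, Ltbp2, Cthrc1, Cd36, Fabp4, Bmp7, Wnt10b, Opcml, Dact2, Ptx3, Egr1, Stmn1 and Wt1, and all of these but Ltbp2 and Cthrc1 also lost the call without ob/ob-Rosi replicate 2. Named genes that could not be tested with these members left out are not among the 13.

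Inflammatory stromal genes fell for 10 of 32 and rose for 3 (median -0.73). Ptgs2 fell to 83.2 and 7.88 CPM (-3.93, SE 0.75, adjusted p = 0.0152), Il6 to 28.9 and 12.4 CPM (-3.07, SE 0.46, adjusted p = 0.00451) and Has1 to 153 and 54.6 CPM (-2.59). Cxcl10, an interferon-induced chemokine, was at 44.2 and 35.9 CPM under ob/ob-Veh and 2.55 and 0.563 CPM under ob/ob-Rosi (-4.80), and Ptx3, a soluble pattern receptor, changed by -2.89. Without ob/ob-Rosi replicate 2 the list had 2 genes lower and 2 higher. Socs3 and Socs1 changed by -2.26 and -2.65, and genes of the digestion response fell for 5 of 28 (median -0.73), among them Myc (-2.61), Zfp36 (-2.34) and the early growth response gene Egr1 (-1.68). The part of handling in these values was not tested. Sult1e1 went from 721 and 614 CPM to 62.8 and 42.8 CPM (-3.62, SE 0.32, adjusted p = 0.000337), and erythrocyte RNA fell for 3 of 3 genes (Hbb-bs, -3.56).

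Promoters of the inflammatory genes that moved together are shown for Il6 and Tnfaip6, which carry letters bound by stress-induced factors. The 300 bases run from 250 before to 50 after the start of the gene in RefSeq's GRCm38.p6, and capitals mark matches on either strand to GGGA, any base, then TTTCC, a form of the kappa B motif of NF-κB, and to TGACTCA, the AP-1 motif. The Il6 promoter lies at chr5:30012864-30013163 on the plus strand, with a kappa B match starting 44 bases before the start of the gene and an AP-1 match 249 bases before it, and that of Tnfaip6 lies at chr2:52037863-52038162 on the plus strand, with an AP-1 match 142 bases before it.
Il6: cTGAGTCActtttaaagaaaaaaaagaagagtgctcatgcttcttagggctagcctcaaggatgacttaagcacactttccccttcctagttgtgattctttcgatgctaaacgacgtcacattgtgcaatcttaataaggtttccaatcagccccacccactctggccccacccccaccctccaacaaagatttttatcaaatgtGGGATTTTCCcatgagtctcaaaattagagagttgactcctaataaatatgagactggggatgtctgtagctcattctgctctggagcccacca
Tnfaip6: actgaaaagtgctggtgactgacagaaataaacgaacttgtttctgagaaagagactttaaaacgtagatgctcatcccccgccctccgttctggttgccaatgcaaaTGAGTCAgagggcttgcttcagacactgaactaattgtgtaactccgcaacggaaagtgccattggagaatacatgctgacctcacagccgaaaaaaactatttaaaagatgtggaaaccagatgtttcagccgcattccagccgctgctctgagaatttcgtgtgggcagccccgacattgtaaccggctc

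Of 25 inflammatory genes with a promoter in the table, 4 held the kappa B letters (Cxcl1, Cxcl2, Il6 and Nfkbia) and 6 the AP-1 letters (Cxcl10, Il11, Il6, Lif, Tnfaip3 and Tnfaip6). Over all 32851 promoters the shares were 0.411% and 5.2%. Among the 9 genes with a promoter that were lower under rosiglitazone, 2 held the kappa B and 5 the AP-1 letters. A match describes these letters and does not show binding.

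Of the Wnt, BMP and GDF genes 4 rose and 6 fell of 32 under rosiglitazone in eWAT. Wnt2 rose to 34.8 and 25.3 CPM (3.48), while Bmp7 fell from 35.8 and 38.1 CPM to 8.49 and 3.94 CPM (-2.59, SE 0.42, adjusted p = 0.00703) and Wnt10b, a canonical Wnt that blocks adipogenesis, from 32.5 and 28.8 CPM to 9.34 and 2.25 CPM (-2.49, SE 0.50, adjusted p = 0.0181). Progenitor markers fell for 5 of 31 and rose for 2 (median -0.79), with Dact2 at -1.98 and Opcml, a cell adhesion molecule, at -2.03. Without ob/ob-Rosi replicate 2, none of 32 tested markers was called (median -0.55). The mesothelial gene Wt1 also fell, from 177 and 201 to 86.6 and 48.4 CPM (-1.44). Ndufa4l2, a hypoxia-induced mitochondrial protein, had the largest named rise, from 0.890 and 2.89 to 51.0 and 199 CPM (6.27, SE 0.70, adjusted p = 0.0014). Igfbp7 (1.57), the translation repressor Eif4ebp1 (1.89) and the dividing-cell genes Birc5 (2.50) and Stmn1 (2.12) rose as well. Birc5 and Stmn1 stood below all kept cells in 6 of 6 eWAT libraries (0.126 to 0.909 and 0.209 to 0.560 of their level) and lost the call without ob/ob-Rosi replicate 2, without ob/ob-Veh replicate 1 and with at least 3 Pi16 and Dpp4 UMIs, and Eif4ebp1 lost it without either of these libraries and without either WT-Veh library. Cell cycle genes rose for 3 of 25, while their summed level overlapped between ob/ob-Veh (1772 and 2491 CPM) and ob/ob-Rosi (2173 and 2222 CPM), and none of 80 ribosomal protein genes was called.

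In iWAT progenitors of obese against lean mice, 50 genes were higher (0.398%) and 61 lower (0.485%) of 12566 tested (0.883%). With library size alone in place of TMM scaling, which moved the median of all genes to 0.11, the split turned to 49 higher and 32 lower. No gene was called without ob/ob-Veh replicate 1 and 5 without ob/ob-Veh replicate 2, whereas 381 were higher and 743 lower without WT-Veh replicate 1, a library of 117 progenitors.

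Fabp5 was at 187 and 75.3 CPM in WT-Veh and 5.53 and 8.40 CPM in ob/ob-Veh progenitors (-4.26, SE 0.46, adjusted p = 0.00925), and was the single PPARγ target called of 30. Fabp4 stood at 1348 and 1119 CPM in WT-Veh and 43.4 and 324 CPM in ob/ob-Veh libraries, with a difference of -2.88 that did not pass (adjusted p = 0.131). As in eWAT both were lower in progenitors than over all kept cells, at 0.0909 to 0.347 and 0.0720 to 0.136 of their level, and Trem2, of macrophages, fell too (-2.98), while the summed macrophage RNA was 912 and 1416 CPM in WT-Veh and 1445 and 1649 CPM in ob/ob-Veh libraries. Mrgprg went from 1065 and 1028 CPM to 39.9 and 99.2 CPM (-4.03, SE 0.45, adjusted p = 0.00925), and Daglb, which makes the endocannabinoid 2-arachidonoylglycerol, from 649 and 353 CPM to 65.2 and 91.6 CPM (-2.75, SE 0.37, adjusted p = 0.0178). Akr1c18 fell from 172 and 285 CPM to 49.2 and 49.3 CPM (-2.33) and was the progenitor marker called of 32. Hsd11b1, which regenerates active glucocorticoid, changed by -1.99, and Fmo2, a monooxygenase, by -1.91.

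Col12a1 was the collagen called of 34, at 371 and 247 CPM in WT-Veh and 62.7 and 59.7 CPM in ob/ob-Veh libraries (-2.40, SE 0.32, adjusted p = 0.0178). The eosinophil chemokine Ccl11 fell from 933 and 874 to 207 and 359 CPM (-1.78), the macrophage growth factor Il34 changed by -3.65, and Stc2, which restrains IGF release, by -2.42. Rspo3, an amplifier of Wnt signalling, and Bmp6 changed by -2.84 and -1.43. Among genes that rose, Il1r2, the decoy receptor of interleukin-1, went from 41.9 and 52.1 CPM to 678 and 677 CPM (3.72, SE 0.40, adjusted p = 0.00925). Dkk2, a Wnt antagonist, went from 6.44 and 10.5 CPM to 47.8 and 54.9 CPM (2.30, SE 0.31, adjusted p = 0.0178), and Cfp, the complement factor properdin, from 12.9 and 12.4 to 52.3 and 51.8 CPM (1.94). Cfp and Bmp6 were among 3 of 23 named genes of this contrast that lost the call with the members carrying macrophage or mesothelial RNA left out. Over the iWAT libraries Cfp stood at 0.0455 to 0.165 of its level in all kept cells. Cdh13, an adiponectin receptor, and Col6a6 rose by 2.88 and 2.60. Inflammatory genes other than Ccl11 were not called, with Ptgs2 at 735 and 850.4 CPM in WT-Veh and 1521 and 1336 CPM in ob/ob-Veh libraries (0.76, adjusted p = 0.28), nor were committed preadipocyte genes (0 of 22). Cldn5, an endothelial junction gene, changed by -4.72, beside summed endothelial RNA of 1204 and 1469 CPM in WT-Veh and 54.2 and 367 CPM in ob/ob-Veh progenitors.

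Under rosiglitazone in iWAT, 179 genes were higher (1.42%) and 120 lower (0.955%) than under vehicle (2.38% of 12566). With library size alone they were 123 and 129, with the median of all genes at -0.13. The counts were 1 and 4 without ob/ob-Veh replicate 1, 7 and 9 without ob/ob-Veh replicate 2, 55 and 18 without ob/ob-Rosi replicate 2 and 1027 and 615 without WT-Veh replicate 1. Fabp5 stood at 113 and 74.3 CPM under ob/ob-Rosi (3.87, SE 0.44, adjusted p = 0.00554), Akr1c18 at 249 and 312 CPM (2.62, SE 0.33, adjusted p = 0.00868) and Col12a1 at 292 and 182 CPM (2.06). Krtdap rose from 32.4 and 70.9 CPM to 442 and 506 CPM (3.34, SE 0.38, adjusted p = 0.00554), and Mgp from 41.7 and 30.4 CPM to 730.2 and 226 CPM (3.82, SE 0.56, adjusted p = 0.0154). The progenitor markers called were Akr1c18, Mfap5 (1150.1 and 1535 to 4518 and 4506 CPM, 1.87) and Dact2 (1.58), all higher, of 32. Bmp3 and Bmp6 rose by 1.89 and 1.78, and Dkk2 fell to 8.93 and 10.5 CPM (-2.27), so that 3 of 32 Wnt, BMP and GDF genes were higher and 2 lower.

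**Figure D4:**
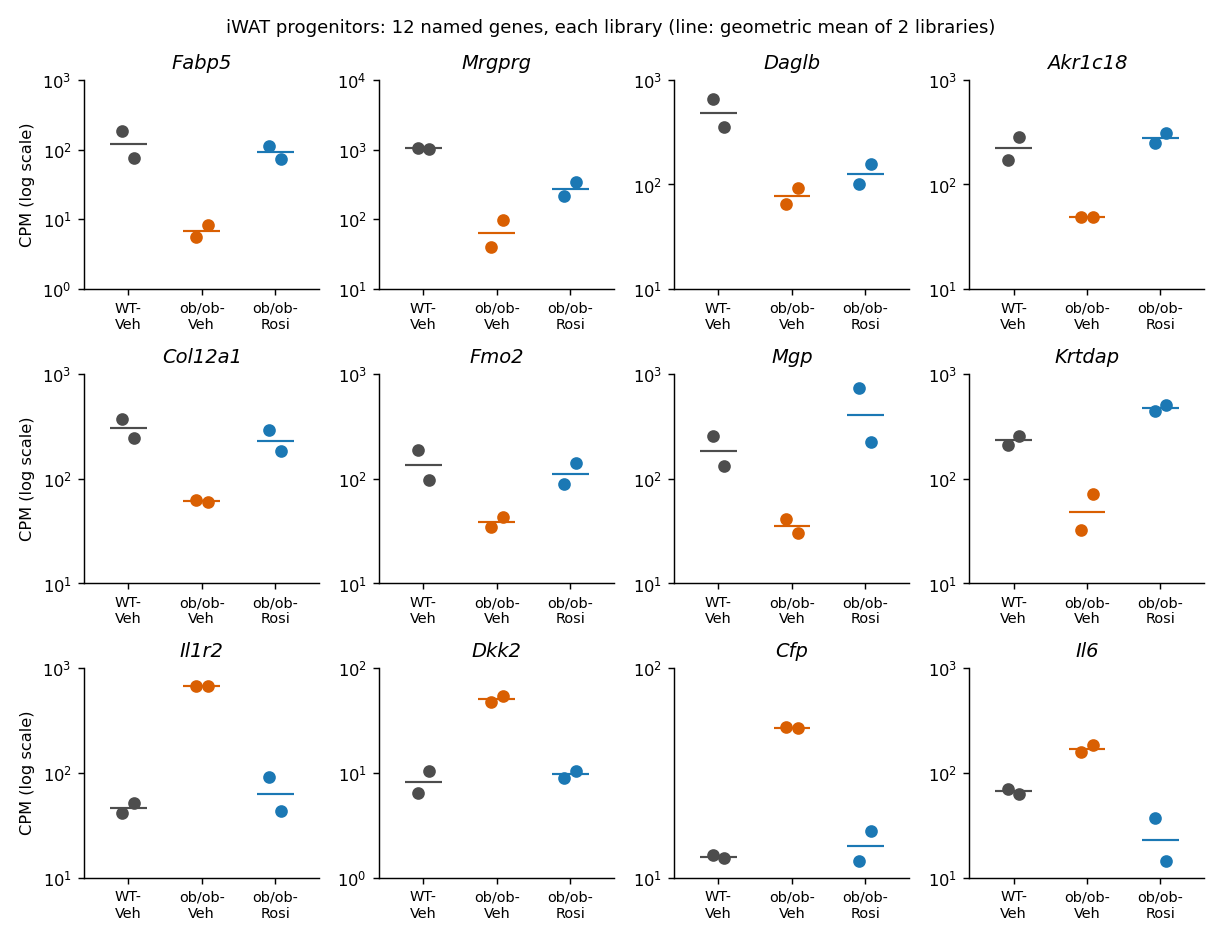
Level in iWAT progenitors (CPM, log axis) of 12 genes by group, with 1 point per library and a line at the geometric mean of the pair. Fabp5, Mrgprg, Daglb, Akr1c18, Col12a1, Fmo2, Mgp and Krtdap are lowest in both ob/ob-Veh libraries, and Il1r2, Dkk2, Cfp and Il6 are highest there.

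Of the PPARγ targets in iWAT 1 of 30 rose and 1 fell, the latter Pdk4, an inhibitor of glucose oxidation (-1.59), and Fabp4 differed by 2.66 without passing (adjusted p = 0.0898). Committed preadipocyte genes rose for 2 of 22, Sparcl1 (2.68) and Cxcl14 (1.47). Summed endothelial RNA in the progenitors was 54.2 and 367 CPM under ob/ob-Veh and 1571 and 777 CPM under ob/ob-Rosi, and its part in these values was not tested. Sparcl1, Cxcl14, Fabp5 and Hp stood below all kept cells in 6 of 6 iWAT libraries, Sparcl1 at 0.295 to 0.680 and Hp at 0.195 to 0.523 of their level, whereas Krtdap and Akr1c18 stood above them in each. Cxcl14 and Pdk4 were among 3 of 32 named genes of this contrast that lost the call with the members carrying macrophage or mesothelial RNA left out. The proteoglycan Bgn (1.97) and the elastic fibre protein Fbln2 (1.70) rose. Inflammatory genes fell for 5 of 31 and rose for 2, Il6 from 157 and 183 CPM to 37.4 and 14.3 CPM (-2.63, SE 0.40, adjusted p = 0.0186), the monocyte chemokine Ccl2 from 378 and 429 to 109 and 101 CPM (-1.83) and the cytokine Lif changed by -2.15. The acute-phase gene Hp rose (3.16). Summed genes of the digestion response were at 27163 and 26068 CPM under ob/ob-Veh and 20636 and 20176 CPM under ob/ob-Rosi. The part of handling was not tested here either. Il1r2 fell to 90.5 and 43.0 CPM (-3.25, SE 0.38, adjusted p = 0.00651), Cfp changed by -1.73 and the insulin receptor substrate Irs1 by -1.49. Ribosomal protein genes had a median of 0.92 with 80 of 81 above 0, yet none was called higher and 1, the germline-biased paralog Rpl39l, was called lower.

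**Figure D5:**
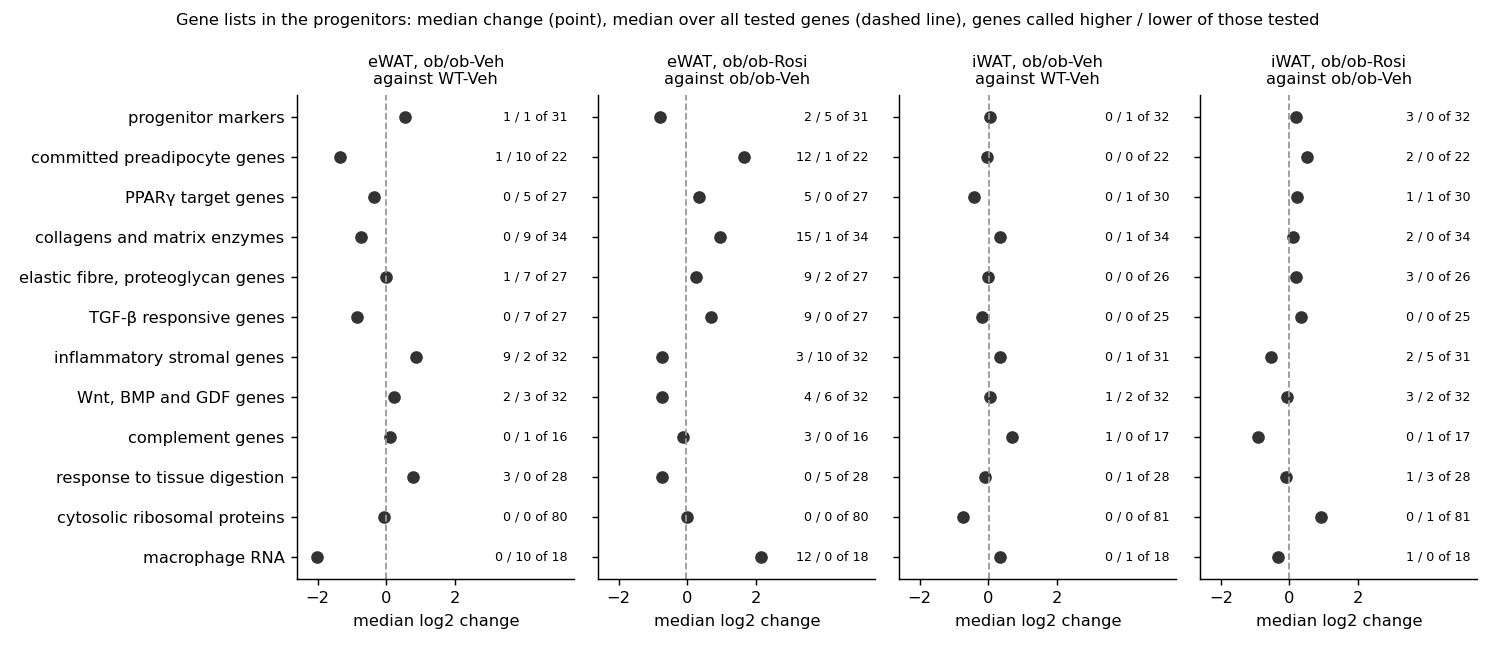
Median log2 change of 12 gene lists in progenitors for ob/ob-Veh against WT-Veh and ob/ob-Rosi against ob/ob-Veh in each depot, with the numbers called higher and lower, and a dashed line at the median of all genes tested. In eWAT the committed preadipocyte genes stand at -1.34 and 1.65 and the collagens and matrix enzymes at -0.74 and 0.95.

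Progenitors under rosiglitazone were also set against those of lean mice. No gene was called in either depot by edgeR, of 10563 in eWAT and 12566 in iWAT (0.0% each), with 273 and 410 genes at an unadjusted p under 0.05. DESeq2 called 1 higher and 1 lower in eWAT and 7 higher and 11 lower in iWAT. With 2 libraries per group this count does not show that the groups were alike. Mrgprg in iWAT, for example, stood at 218 and 342 CPM under ob/ob-Rosi and 1065 and 1028 CPM in lean mice without overlap, and Daglb at 100.3 and 158 CPM against 649 and 353 CPM in lean mice.

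Over the 3 groups together, iWAT progenitors differed from eWAT progenitors in 1075 genes that were higher (8.34%) and 1131 that were lower (8.77%) of 12889 tested (17.1%). The iWAT counts had been filtered before deposit and the eWAT counts had not. The same limits on UMIs, genes and mitochondrial share were applied here to both depots, and other differences in how the counts were prepared were not tested. Progenitor markers were higher in iWAT for 21 of 32 and lower for none (median 1.1). Members with 5 or more Pi16 and Dpp4 UMIs were 69.2% to 92.4% of an iWAT library's progenitors and 27.9% to 63.6% in eWAT. The part of cells near the threshold in the depot difference was not tested. Igfbp5, a binding protein of insulin-like growth factors, was at 3050.4, 4789 and 7349 CPM (lowest, median and highest library) in iWAT and 99.0, 488 and 752 CPM in eWAT (3.61, SE 0.40, adjusted p = 2.75e-05). Akr1c18, at 49.2, 211 and 312 CPM against 1.16, 3.03 and 10.1 CPM, and Mrgprg differed by 5.69 and 5.86. Il1r2, the kinase Prkg2, the integrin Itgb7 and the nuclear receptor Rorb were higher in iWAT by 5.42, 5.76, 5.41 and 5.11, Wnt2 by 3.03 and Bmp3 by 4.28. Of the inflammatory genes 12 of 33 were higher and 7 lower in iWAT, with the B-cell chemokine Cxcl13 at 4.83 and Hp at -5.49.

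On the eWAT side stood committed preadipocyte genes (12 of 22, against 1 higher in iWAT), all 10 mesothelial genes and the matrix genes named next. The summed collagens and matrix enzymes overlapped between the depots, at 22776 to 46923 CPM in eWAT and 21785 to 40339 CPM in iWAT. Under ob/ob-Veh they were higher in iWAT, at 34522 and 40339 CPM against 22776 and 23112 CPM. Mgp was at 287, 6660.2 and 11030.0 CPM in eWAT and 30.4, 180.0 and 730.2 CPM in iWAT (-4.34, SE 0.33, adjusted p = 1.05e-06), Cilp differed by -3.48, Bgn by -2.49 and Col15a1 by -2.78. Timp1 and the TGF-β binding protein Ltbp4, both lower in iWAT, differed by -3.03 and -2.71, and Rspo1, an amplifier of Wnt signalling, by -4.81. Wt1 was at 48.4, 83.8 and 201 CPM in eWAT and 0, 0 and 4.15 CPM in iWAT. Cell cycle genes were lower in iWAT for 13 of 29 and higher for 2, and genes of the digestion response were higher for 16 of 28 and lower for 4. The part of digestion in the depot difference was not tested.

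Whether obesity or rosiglitazone acted differently on progenitors of the depots was tested by the interaction. The ob/ob effect differed for 9 of 12889 genes (0.0698%), in 5 upward in iWAT relative to eWAT (0.0388%) and in 4 downward (0.031%). The Rosi effect differed for 55 (0.427%), in 33 upward (0.256%) and in 22 downward (0.171%). Mmp3 changed by -4.36 in obese eWAT, and its change in iWAT exceeded this by 6.31 (SE 0.68, adjusted p = 0.00351). For Timp1, C4b and Apoe the iWAT change exceeded that of eWAT by 4.31, 3.91 and 3.27, whereas for Mrgprg and Daglb it lay below, at -5.46 and -3.50. Under rosiglitazone the iWAT change lay below that of eWAT for Mmp3 (-5.72), Il1r2 (-5.20) and Timp1 (-3.21), and above it for Mrgprg (5.60), Krtdap (3.94), Dact2 (3.54) and Bmp6 (2.12). The first count fell to 1 without eWAT WT-Veh replicate 1, and the second to 3 without either iWAT ob/ob-Veh library.

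The response of progenitors was set against that of Pi16/Dpp4-negative cells in the same libraries by a second interaction. In eWAT the ob/ob effect differed between the cell sets for 366 of 12462 genes (2.94%), upward in progenitors for 189 (1.52%) and downward for 177 (1.42%), and the Rosi effect for 427 (3.43%), upward for 233 (1.87%) and downward for 194 (1.56%). In iWAT the ob/ob effect differed for 180 of 12517 (1.44%), upward for 64 (0.511%) and downward for 116 (0.927%), and the Rosi effect for 138 (1.1%), upward for 100 (0.799%) and downward for 38 (0.304%). Igf1, a growth factor, was called for both effects in eWAT. In eWAT progenitors it stood at 213 and 221 CPM in lean mice, 196 and 330.3 CPM under ob/ob-Veh and 219 and 149.7 CPM under ob/ob-Rosi. In Pi16/Dpp4-negative cells the levels were 251 and 214 CPM, 1546 and 1449 CPM and 218 and 146 CPM. The ob/ob-Veh level was thus several times higher in the Pi16/Dpp4-negative cells but not in the progenitors, and the effects differed by -2.41 (SE 0.21, adjusted p = 9.09e-07) for obesity and 2.53 (SE 0.21, adjusted p = 2.28e-07) for rosiglitazone.

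Under rosiglitazone 15 of 22 committed preadipocyte genes changed upward in eWAT progenitors relative to Pi16/Dpp4-negative cells and none downward, with Cxcl14 at 2.67, Col15a1 at 1.74 and Plin2 at 0.97. The ob/ob effect differed downward for 7 of the 22 and upward for 1. In eWAT, members with 5 or more Pi16 and Dpp4 UMIs were 63.6% and 58.9% under ob/ob-Veh and 34.6% and 36.5% under ob/ob-Rosi. With the equal-depth gate the eWAT Rosi effect differed between the cell sets for 155 genes in place of 427. The part of cells near the threshold in these differences was not tested. In iWAT 16 of 32 progenitor markers had a lower ob/ob effect in progenitors than in Pi16/Dpp4-negative cells and 1 a higher, with Uchl1, a ubiquitin hydrolase, at -2.56 and Cd55 at -1.40, and under rosiglitazone 10 of 32 had a higher effect and none a lower. Ptgs2 and Has1 followed at -3.18 and -2.41 for the ob/ob effect, and the matricellular gene Postn at 2.47. Cd55 in the iWAT Pi16/Dpp4-negative cells was at 47.1 and 27.1 CPM in lean mice, 106 and 107 CPM under ob/ob-Veh and 58.5 and 33.7 CPM under ob/ob-Rosi, and the share of C1q-bearing leukocytes with Pi16 and Dpp4 UMIs was highest in the same ob/ob-Veh libraries. The part of RNA from other cells in these differences was not tested.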

How the data were processed

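UMI counts per gene and cell barcode were used as deposited by the authors, who per the submitters' processing notes used bcl2fastq 2.19.1.403, Cell Ranger 3.0.2 and mm10. The libraries were 10x 3' libraries, labelled by depot and biological replicate. The iWAT matrices hold no barcode above 22000 UMIs or at 25% or more mitochondrial UMIs, so they had been filtered before deposit. No doublet caller was run and free RNA was not subtracted.

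Counts were summed over the progenitors of each library, and genes passing filterByExpr were fitted with edgeR 4.0.16 in R 4.3.3 (TMM, glmQLFit, quasi-likelihood F test, 3 groups per depot in a single fit). The rule genes were left out of the comparison with Pi16/Dpp4-negative cells. In the other fits, rule genes that passed the filter stayed among the genes tested. None of them was called between groups of a depot, but the counts called between depots may include them. The depot comparisons used all 12 libraries, and the comparison with Pi16/Dpp4-negative cells used the library as a block. P-values were adjusted by Benjamini-Hochberg over all genes tested, and the limits for a call were 0.05 and 1.1-fold. SE is the absolute log2 change over the square root of F. DESeq2 1.42.0 was an alternative, and tables were made in Python 3.11.15. The study's text calls the samples individual mice, and whether libraries of both depots share mice is not given in the sources used here. P-values rest on 2 libraries per group, and the depot fits treat the 12 libraries as independent.

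Named genes were, per direction, the 8 called genes that changed most, with at least 50 CPM in the higher group and libraries of both groups apart, without rule, mitochondrial and predicted genes, and per list up to 4 called genes with the largest change or, where fewer than 2 were called, the 2 most abundant. Log2 changes are also given for genes with a library at or near 0 CPM, such as Bmp2, Cthrc1, Cxcl10, Il1r2 and Ndufa4l2 in eWAT. The size of such changes is uncertain. The members, the gene lists and the rule were chosen with earlier results of these data known. Gene positions and promoters are from RefSeq (GRCm38.p6). Apart from the thinned eWAT shares above, intervals were not given for shares, since counting error leaves out the variation between libraries. That variation was large for some pairs, such as 21.6% and 69.9% in iWAT WT-Veh. It was small for others, such as 16.4% and 17.3% in eWAT ob/ob-Rosi. The steps were tested on simulated data.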

Additional observations from a re-analysis of the deposited data

Results flagged for a closer look

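The effect of obesity differed between the depots, by the test of the difference itself in edgeR's fit over all 12 libraries, for 9 genes. Relative to the eWAT change the iWAT change was higher for Mmp3 (6.31), Timp1 (4.31), C4b (3.91), Sfrp4 (3.32) and Apoe (3.27) and lower for Mrgprg (-5.46), Daglb (-3.50), Ces1d (-3.18) and Csrnp1 (-2.68), all on the log2 scale. Mmp3 changed by -4.36 in eWAT and by 1.94 in iWAT, where it was not called (adjusted p = 0.13). Daglb, in turn, changed by -2.75 in iWAT, and by 0.77 without being called in eWAT (adjusted p = 0.213).

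The effect of rosiglitazone differed for 55 genes. The iWAT change was lower for Mmp3 (-5.72), Il1r2 (-5.20), C4b (-3.67), Timp1 (-3.21) and the Wnt modulator Sfrp4 (-2.74). It was higher for Mrgprg (5.60), Krtdap (3.94), Hp (3.88), Dact2 (3.54) and Bmp6 (2.12). Il1r2 changed by 1.95 in eWAT without being called (adjusted p = 0.0968), and its lowest eWAT library stood at 0. Mrgprg was called with opposite directions, -3.46 in eWAT and 2.15 in iWAT, and so were Dact2, at -1.98 and 1.58, and Sfrp4, at 1.28 and -1.45. The eWAT call of Dact2 was lost without ob/ob-Rosi replicate 2 and with members carrying macrophage or mesothelial RNA left out.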

How the results depend on the processing

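Of 268 called results of named genes, 126 were called under every alternative in which the gene was tested. These included 30 of 30 (eWAT) and 27 of 27 (iWAT) against Pi16/Dpp4-negative cells, which the gate defines, and 35 of 36 between depots, but 10 of 36 (ob/ob effect) and 15 of 43 (Rosi effect) in eWAT and 0 of 23 and 0 of 32 in iWAT. None changed direction, and 467 of 3323 alternatives of single genes lost the call. Alternatives in which a gene was not tested were left out of these counts. In eWAT the counts of called genes for ob/ob-Veh against WT-Veh (205) became 335 with DESeq2, 125 with at least 3 Pi16 and Dpp4 UMIs, 115 with the equal-depth gate, 770 with no filter on low counts and 96 with other-lineage cells left out. For ob/ob-Rosi against ob/ob-Veh (455) they became 296, 259, 1155 and 136 under the last 4 of these. For ob/ob-Rosi against WT-Veh (0) they became 2 with DESeq2 and 9 without the filter in eWAT, and 18 and 90 in iWAT. In iWAT ob/ob-Veh against WT-Veh (111) became 267 with DESeq2 and 885 without the filter, and ob/ob-Rosi against ob/ob-Veh (299) became 600, 1481 and, with the equal-depth gate, 191. The depot difference (2206) became 1368 with the equal-depth gate, and the depot differences of the ob/ob and Rosi effects (9 and 55) became 132 and 171 with DESeq2 and 14 and 26 with the equal-depth gate. Against Pi16/Dpp4-negative cells, DESeq2 gave 178 and 194 in eWAT (ob/ob and Rosi effects) and 119 and 69 in iWAT, and the equal-depth gate gave 155 for the eWAT Rosi effect and 288 for the iWAT ob/ob effect. The cause was not tested for any of these. Replicate numbers are shared by the groups but name no common animal or day, and the correlation of same-numbered deviations was 0.174, 0.171 and 0.123 in eWAT and 0.000504, 0.429 and 0.0274 in iWAT. With the replicate block the counts were 378 and 726 in eWAT, 261 and 910 in iWAT, 2689 for the depot difference, and 98 and 162 for the depot differences of the effects.

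Leaving out each replicate in turn gave 37 to 332 and 59 to 1178 called genes in eWAT (ob/ob, then Rosi effect) and 0 to 1124 and 5 to 1642 in iWAT. For ob/ob-Rosi against WT-Veh it gave 0 to 0 and 0 to 7, for the depot difference 1578 to 2303, and for its ob/ob and Rosi differences 1 to 32 and 3 to 116. Against Pi16/Dpp4-negative cells it gave 1691 to 2697 and 3655 to 4638, and for the ob/ob and Rosi differences 102 to 502 and 148 to 470 in eWAT and 61 to 218 and 22 to 146 in iWAT. The share differences, in alternatives chosen after seeing the data, were 4.78 and 11.9 points (ob/ob-Veh minus WT-Veh) and -4.63 and -11.8 points (ob/ob-Rosi minus ob/ob-Veh) in eWAT after thinning to 700 and 2000 UMIs. Without single libraries they spanned 17.9 to 30.6 and -28.0 to -15.3 points in eWAT and 6.10 to 54.3 and -36.4 to -21.3 points in iWAT. Progenitor sums of 493721 to 12667100 UMIs limit the genes of low level that could be tested.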
